A study of Saccharomyces cerevisiae with 6 samples.

Results

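The histone-modifying genes of Saccharomyces cerevisiae described here encode subunits of the acetyltransferase complexes SAGA, NuA4, NuA3, SAS and Hat1, the deacetylase complexes Rpd3L, Rpd3S, Hda1 and Set3 with the Hos deacetylases, the methylation enzymes Set1 (with its COMPASS subunits), Set2 and Dot1, the H2B ubiquitin ligase Bre1, and the demethylases Jhd1 and Jhd2. They were listed by gene symbol from what is known of the complexes, with earlier results of these data already known. All 59 listed genes were measured, each by 1 probe set, among 5449 genes tested. The study compared 3 arrays of yeast carrying H2A R78A, in which an arginine of histone H2A is replaced by alanine, with 3 arrays of yeast with wild-type H2A. Every culture was grown in rich glucose medium to mid-log phase, and biotin-labelled cRNA was hybridised to one-colour Affymetrix arrays. The labels give no strain background, do not say from which H2A gene or plasmid the mutant protein is made, and leave unsaid whether each replicate came from its own culture. The p-values thus reflect only how far these samples vary, possibly for technical reasons. A single amino acid change cannot be read from these probe sets, and the genotype was not checked.

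Lysine acetylation of histone tails loosens nucleosomes and recruits transcription machinery, and deacetylases take it off again. Methylation by Set1 marks the starts of active genes, Set2 the bodies of transcribed genes, and Dot1 the core of the nucleosome, with H2B ubiquitylation by Bre1 needed upstream of Set1 and Dot1. In yeast these enzymes act as large complexes whose scaffolds and reader domains direct a small catalytic core to chromatin. The comparison shows whether the transcripts of this machinery differ in cells carrying an H2A in which an arginine that contacts the DNA minor groove is replaced.

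Most of these genes did not differ between H2A R78A and wild type by more than the spread between arrays. In limma's test with Benjamini-Hochberg adjustment over all genes, 10 of the 59 passed an adjusted p of 0.05. That is 16.9%, against 27.1% of all genes tested. Higher in the mutant were 8 (13.6%, against 17.9% of all genes): JHD2, SAP30, RCO1, SGF11, YNG1, SPT3, HOS2 and JHD1. Lower were 2 (3.39%, against 9.18% of all genes): HAT2 and RPD3. The changes were small. Only HOS2 differed by at least 1.5-fold, which 8.7% of all genes did. The median log2 difference (H2A R78A minus wild type) was 0.06 over the 59 genes and 0.02 over all genes.

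The 3 mutant arrays and the 3 wild-type arrays did not overlap for 17 of the 59 genes (28.8%), against 43.1% of all genes. Of these 17, 14 were higher and 3 lower in the mutant. That split was not counted over all genes, so it is not read as a trait of the list. Among all genes that passed the limma test, 976 were higher and 500 lower. Among the 49 genes that did not pass, log2 differences lay between -0.22 and 0.26. For 17 of them the whole 95% confidence interval stayed within 0.25 on either side of 0, a factor of 1.19, and for 47 within 0.5, a factor of 1.41. A 2-fold change lay outside the interval of all 49, whose bounds reached from -0.47 to 0.57. These intervals are not adjusted for the number of genes.

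**Figure D1:**
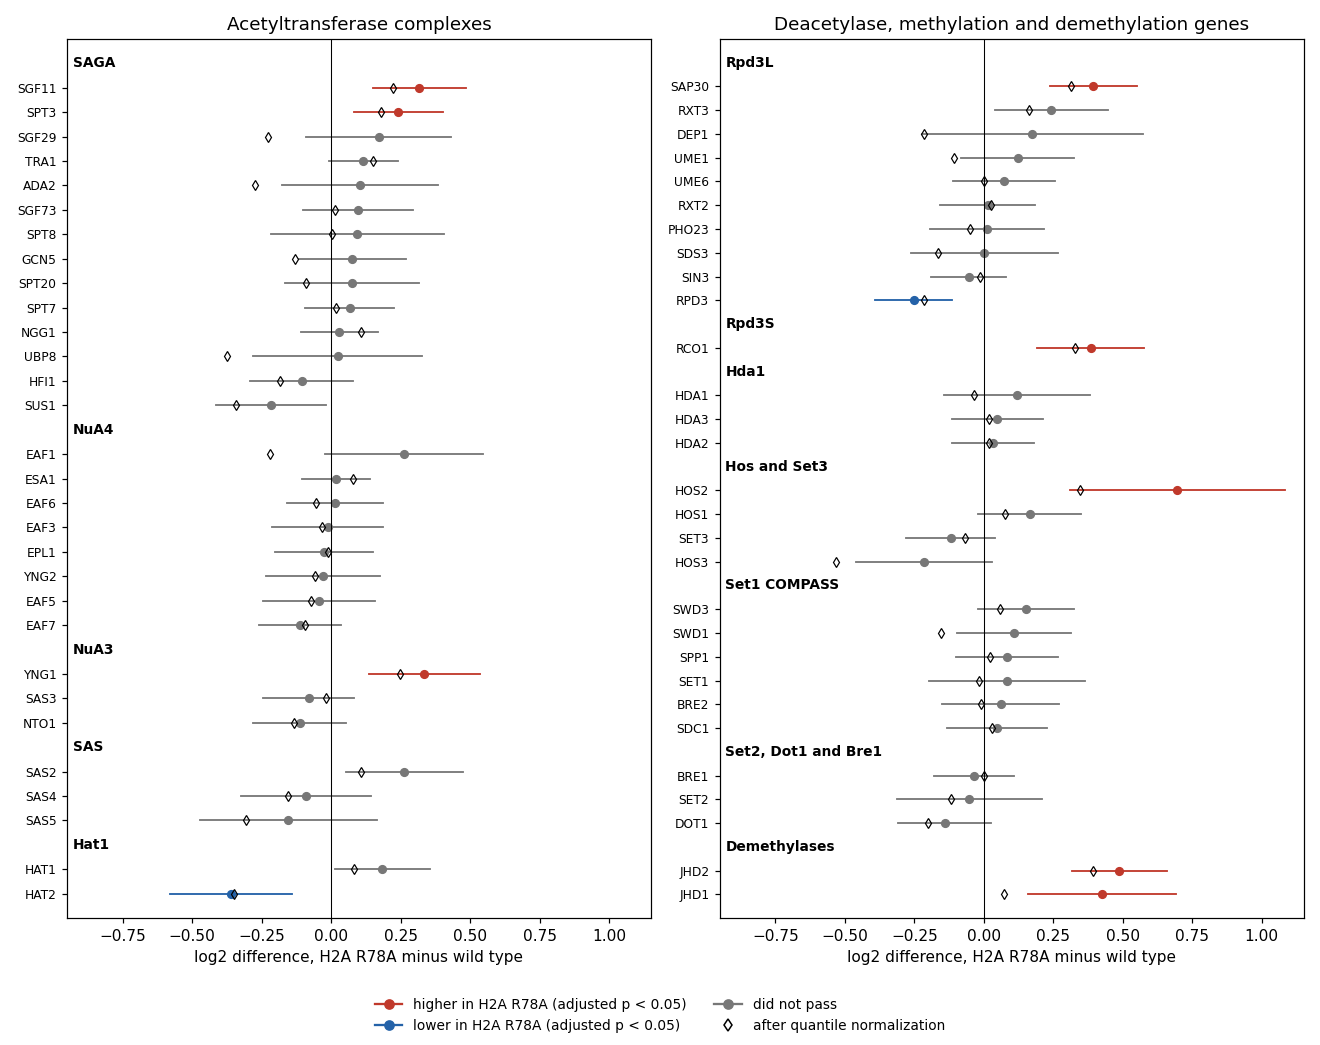
Log2 difference, H2A R78A minus wild type, for the 59 genes, with those shared between complexes drawn once. Filled points and lines are limma estimates with 95% confidence intervals on the deposited scale (3 arrays per group), red and blue for the 8 higher and 2 lower genes, and open diamonds are the differences after quantile normalization; most intervals span 0, and for dim genes such as ADA2, UBP8 and HOS3 the diamonds lie well to the left of the points.

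How far these small differences depend on signal strength bears on every gene below. On the deposited scale the mutant arrays have a narrower spread of signals, with a 10th percentile of 121 to 135 against 90.2 to 102 in wild type. Dim genes read higher in the mutant. Whether this comes from the RNA or from the arrays was not tested. The 11 listed genes below the background level, set at the 25th percentile of all genes (a signal of 232), had a median difference of 0.12, and 10 of the 11 were on the higher side. All 1362 genes below that level had a median of 0.28, and 37.4% of them were higher, against 18.2% of the 11. After quantile normalization, which gives every array the same distribution, the same 11 genes had a median of -0.22 and 2 were on the higher side. The direction of most of these 11 genes thus turned with the scaling. The median of all 1362 genes was not computed after quantile normalization. The 48 listed genes above the background level were steadier, with a median of 0.03 on the deposited scale and -0.0058 after quantile normalization. Among these 48, 12.5% were higher and 4.17% lower, against 11.4% and 11.5% of all 4087 genes above that level.

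Under quantile normalization 3 of the 59 genes were higher (5.08%, against 10.5% of all genes) and 5 lower (8.47%, against 9.82%). The higher ones were JHD2, SAP30 and RCO1, which were also the genes that passed at 0.05 under each of the 16 alternatives tried. The lower ones were HAT2, RPD3, SUS1, HOS3 and UBP8.

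**Figure D2:**
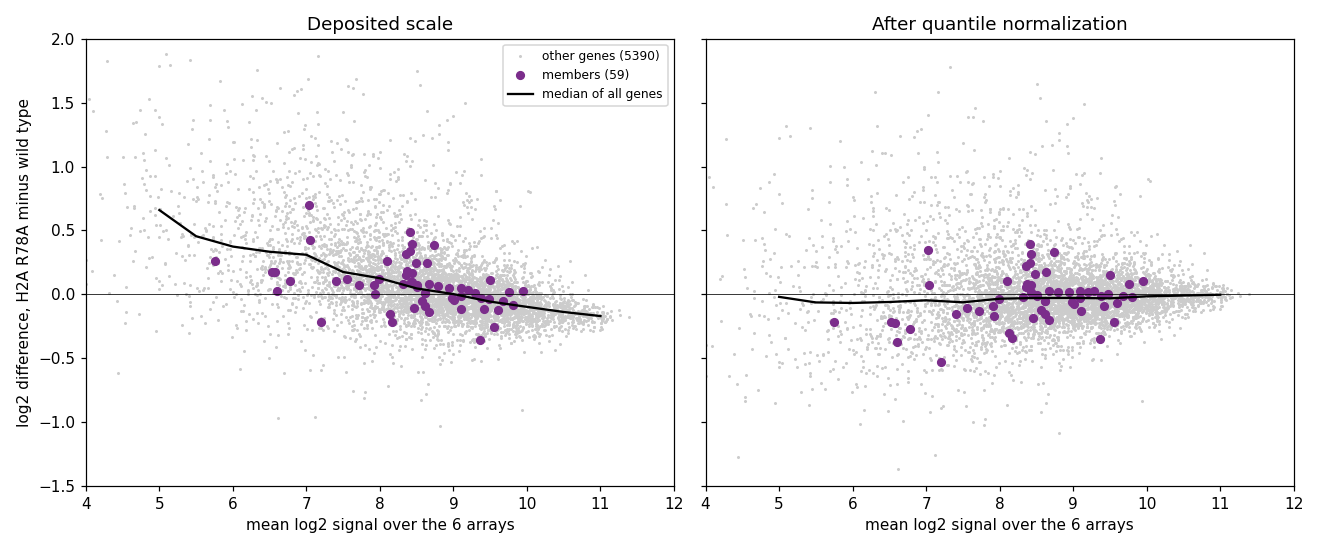
Log2 difference, H2A R78A minus wild type, against the mean log2 signal over the 6 arrays, on the deposited scale (left) and after quantile normalization (right). Purple points are the 59 listed genes, grey points the other 5390 genes and the black line the median of all genes in steps of signal; 35 genes on the left and 33 on the right, none of them listed, lie outside the axes. On the left the listed genes and the median of all genes are higher at low signal. On the right the median of all genes is nearly level, while the dim listed genes mostly lie below 0.

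Among the acetyltransferase complexes, SAGA had 2 of 14 genes higher and 0 lower. These shares of 14.3% and 0% stood against 17.9% and 9.18% of all genes. The median of their differences was 0.09, and quantile normalization made it -0.04. SGF11 (YPL047W) encodes a small subunit of the deubiquitinating module, which removes ubiquitin from H2B. Its signal was 371, 371 and 358 in H2A R78A, against 279.9, 311 and 293 in wild type. All mutant arrays lay above all wild-type arrays. The log2 difference was 0.32 ± 0.08 (SE), a 1.25-fold increase with a limma adjusted p of 0.0117. Without wild-type replicate 1 the adjusted p was 0.0527, and after quantile normalization 0.0675 (difference 0.22).

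SPT3 (YDR392W), whose product helps SAGA deliver TATA-binding protein to promoters, had signals of 436, 408 and 455 in H2A R78A, against 367, 374 and 357 in wild type. The groups did not overlap, and the 1.18-fold increase had a limma adjusted p of 0.0323. It had the highest adjusted p of the 10. The adjusted p of SPT3 was 0.103 without mutant replicate 1, 0.138 without mutant replicate 3, 0.0842 without wild-type replicate 1 and 0.079 without wild-type replicate 3, and 0.110 after quantile normalization.

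No other gene of the deubiquitinating module passed on the deposited scale. UBP8, the ubiquitin protease itself, had 101, 93.5 and 98.8 in H2A R78A and 103, 79.1 and 109.9 in wild type, with overlapping groups. Its difference was 0.02 on the deposited scale and -0.38 after quantile normalization, where it passed as lower (limma adjusted p = 0.0355). UBP8 is one of the dimmest listed genes, and its direction is not settled by these data. SUS1, which also serves in mRNA export, had 275.5, 239.6 and 288 in H2A R78A, against 320.3, 306 and 304 in wild type, and the groups did not overlap. Its difference of -0.22 had an adjusted p of 0.0957. After quantile normalization the difference of SUS1 was -0.34 (adjusted p = 0.0169), with cyclic loess -0.31 (0.0229) and with median centring -0.28 (0.0323), so that SUS1 passed as lower under each of these 3 scalings. SGF73, which anchors the module to SAGA, had a difference of 0.10 (95% confidence interval -0.10 to 0.30).

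The acetyltransferase module of SAGA showed no change that passed. GCN5 (YGR252W), the catalytic subunit, averaged 216 ± 13.2 in H2A R78A and 205 ± 4.43 in wild type (SD, n = 3 each), a difference of 0.08 with an interval of -0.12 to 0.27. ADA2 and SGF29, partners of Gcn5 in the module, had dim signals of 114 ± 13.4 and 102 ± 10.5 in H2A R78A, against 106 ± 9.84 and 89.98 ± 2.64 in wild type (SD, n = 3 each). NGG1, the Ada3 subunit, differed by 0.03 (-0.11 to 0.17). Of the structural core, HFI1, SPT7, SPT8 and SPT20 had differences of -0.11, 0.07, 0.09 and 0.07. TRA1, the large activator-binding subunit shared with NuA4, was tight within groups, at 768, 754 and 741 in H2A R78A and 697, 696 and 697 in wild type. The TRA1 groups did not overlap, but the difference of 0.11 (-0.01 to 0.24) had an adjusted p of 0.153.

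None of the 9 listed NuA4 genes passed in either direction on the deposited scale, after quantile normalization or with cyclic loess. SWC4 and ARP4, NuA4 subunits outside the list, passed and are described with the other subunits. ESA1 (YOR244W), the essential acetyltransferase that acts on H4 and H2A, had 898, 863 and 859 in H2A R78A, against 854, 853 and 883 in wild type. The groups overlapped, and the interval of -0.11 to 0.14 around a difference of 0.02 was the narrowest of the 59 genes. EPL1, YNG2 and EAF6, which with Esa1 form or join the catalytic core, had differences of -0.03, -0.03 and 0.01. EAF3, a chromodomain protein shared with Rpd3S, EAF5 and EAF7 had differences of -0.01, -0.05 and -0.11. EAF1, the scaffold, was the dimmest of the 59 genes, with 59.1 ± 1.52 in H2A R78A and 49.3 ± 2.81 in wild type (SD, n = 3 each). Its difference of 0.26 (adjusted p = 0.153) was -0.22 after quantile normalization (0.189). EAF1 passed as higher when no variance trend was fitted (adjusted p = 0.0287). It also passed when low values were raised to a floor, but every EAF1 value was then the floor of its array.

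In NuA3, which acetylates H3 at sites read through methylation, 1 of 4 genes passed. YNG1 (YOR064C), the subunit whose PHD finger binds the Set1 methyl mark, had 425, 357 and 365 in H2A R78A, against 322, 304 and 283 in wild type. All 3 mutant values were above the wild-type ones, replicate 1 being the highest of each group. YNG1 was 1.26-fold higher (log2 0.34 ± 0.09 SE, limma adjusted p = 0.021). The adjusted p of YNG1 was 0.0931 without mutant replicate 1, 0.0599 without wild-type replicate 3 and 0.0673 after quantile normalization. SAS3, the catalytic subunit, and NTO1 leaned the other way, with differences of -0.08 (-0.24 to 0.08) and -0.11 (-0.28 to 0.05) that did not pass.

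No gene of the SAS complex, which acetylates H4 and limits the spread of silencing, passed. SAS2, the catalytic subunit, had 292, 337 and 278 in H2A R78A, against 253, 236 and 265 in wild type, and a difference of 0.26 with an adjusted p of 0.0622. With the replicate number as a block SAS2 passed as higher (adjusted p = 0.0444). SAS4 and SAS5 had differences of -0.09 and -0.15 and overlapping groups. SAS5 passed as lower without wild-type replicate 2 (-0.34, adjusted p = 0.0425), and after quantile normalization with the block (-0.31, 0.0199).

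The listed genes of the Hat1 complex, which acetylates newly made H4 before it is deposited, lay on opposite sides. HAT2 (YEL056W), the histone-binding WD-repeat subunit, had 549, 674 and 526 in H2A R78A, against 774, 792 and 671 in wild type. The groups overlapped, since mutant replicate 2 stood just above wild-type replicate 3. HAT2 was 1.28-fold lower (log2 -0.36 ± 0.10 SE, limma adjusted p = 0.0231), and 1.7% of all genes had a larger decrease. It also passed as lower after quantile normalization (-0.35, adjusted p = 0.0349), but not without mutant replicate 1 (0.080), mutant replicate 3 (0.0955), wild-type replicate 1 (0.0749) or wild-type replicate 2 (0.0752), nor when no variance trend was fitted (0.0505). HAT1, the catalytic subunit, had 339, 347 and 369.6 in H2A R78A, against 295, 312 and 323 in wild type, without overlap. The HAT1 difference of 0.18 did not pass (adjusted p = 0.101), except with array weights (0.019). HIF1, a dim subunit outside the list, had a difference of -0.07 (limma adjusted p = 0.649). After quantile normalization the HIF1 difference was -0.35 (0.0724), which passed as lower with the replicate number added as a block (0.0106).

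**Figure D3:**
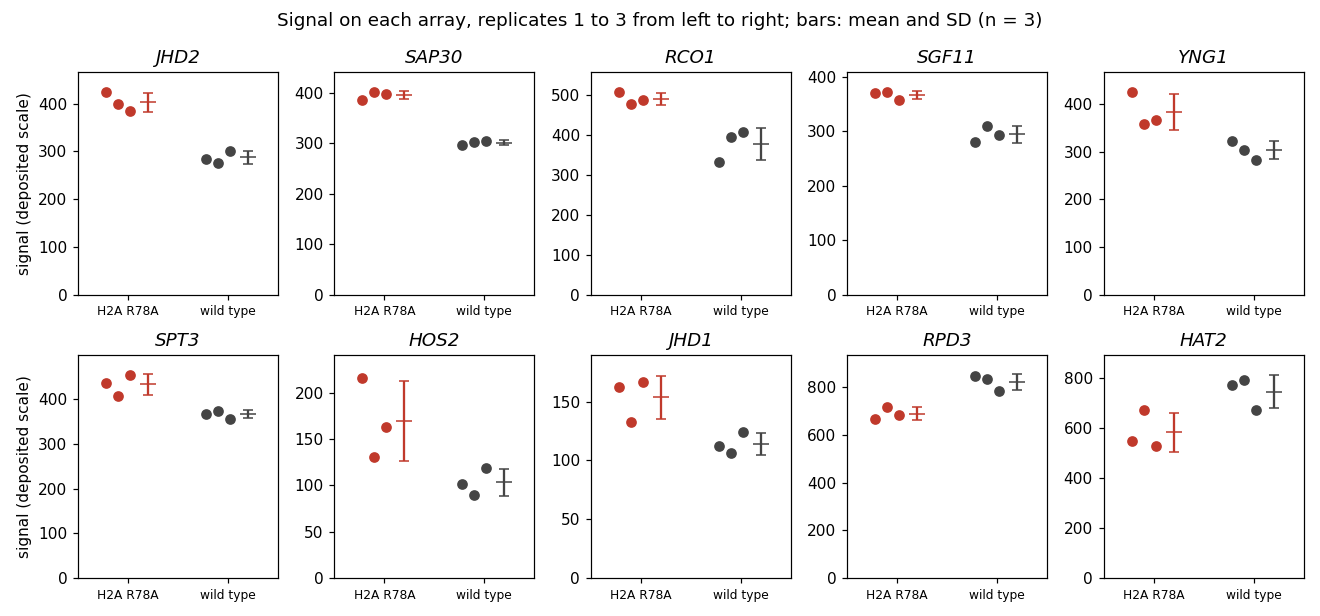
Deposited signal of the 10 genes that passed, 1 point per array in order of replicate number, H2A R78A left of wild type, with mean and SD (n = 3) beside the points; each vertical axis starts at 0. The first 8 panels are the higher genes and the last 2, RPD3 and HAT2, the lower ones; only in HAT2 do the groups overlap.

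Among the deacetylases, Rpd3L and Rpd3S each had 1 higher and 1 lower gene, RPD3 being the lower one of each. That is 10% each way of the 10 Rpd3L genes and 20% each way of the 5 Rpd3S genes. Of all genes, 17.9% were higher and 9.18% lower. Rpd3L, the large form that Ume6 and other DNA-binding proteins bring to promoters, and Rpd3S, the small form that follows Set2 methylation into gene bodies, share the RPD3, SIN3 and UME1 products. RPD3 (YNL330C), the catalytic subunit of each, had 666, 719 and 684 in H2A R78A, against 848, 835 and 783 in wild type. Every mutant value was below every wild-type value. RPD3 was 1.19-fold lower (log2 -0.25 ± 0.06 SE, limma adjusted p = 0.0136), and also passed after quantile normalization (-0.22, adjusted p = 0.0302) and with cyclic loess (-0.20, 0.0391). Without mutant replicate 1, mutant replicate 3 or wild-type replicate 1 the adjusted p of RPD3 was 0.0623, 0.0545 and 0.0609. In bulk samples such as these, fewer cells of a type and less RNA per cell cannot be told apart.

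SAP30 (YMR263W), a subunit found in Rpd3L and not in Rpd3S, had 387, 402 and 398 in H2A R78A, against 296, 303 and 305 in wild type. The values within each group were close together and the groups lay far apart. SAP30 was 1.31-fold higher (log2 0.39 ± 0.07 SE, limma adjusted p = 0.00227), and 0.31 higher after quantile normalization (adjusted p = 0.013). RCO1 (YMR075W), a PHD-finger subunit that marks Rpd3S, had 507, 476 and 486 in H2A R78A, against 330.4, 393 and 406 in wild type. Wild-type replicate 1 was lower than the other wild-type arrays, and all 6 values kept the groups apart. RCO1 was 1.31-fold higher (log2 0.38 ± 0.09 SE, limma adjusted p = 0.00894), and 0.33 higher after quantile normalization (adjusted p = 0.0242).

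Of the other Rpd3L genes none passed. SIN3, the scaffold, averaged 801 ± 29.5 in H2A R78A and 831 ± 35.6 in wild type (SD, n = 3 each), a difference of -0.05 (95% confidence interval -0.19 to 0.08). UME6, the DNA-binding repressor of early meiotic genes, differed by 0.07 (-0.11 to 0.25). RXT3 had 383, 390.4 and 395 in H2A R78A, against 343, 288 and 362 in wild type, and the groups did not overlap. The RXT3 difference of 0.24 had an adjusted p of 0.0749, and it passed as higher with the replicate number as a block (0.0352), with array weights (0.0402) and without wild-type replicate 3 (0.0412). PHO23, a PHD-finger subunit, RXT2, SDS3, UME1 and DEP1 had differences of 0.01, 0.01, 0.0015, 0.12 and 0.17 with overlapping groups, and those of SDS3, UME1 and DEP1 were -0.17, -0.11 and -0.22 after quantile normalization, which did not pass either.

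The 3 subunits of the Hda1 complex, HDA1, HDA2 and HDA3, had differences of 0.12, 0.03 and 0.05, and none passed. HDA1 passed as higher without mutant replicate 2 (0.26, adjusted p = 0.0489). HOS2 (YGL194C), the deacetylase of the Set3 complex, had the largest difference of the 59 genes on the deposited scale. Its signal was 217, 131 and 163 in H2A R78A, against 102, 89.7 and 119 in wild type. The groups did not overlap, but the mutant values were widely spread and the signal lay below the background level. HOS2 was 1.62-fold higher (log2 0.70 ± 0.18 SE, limma adjusted p = 0.0149). After quantile normalization the difference was 0.35 (adjusted p = 0.135) and with cyclic loess 0.42 (0.060), and without wild-type replicate 2 the adjusted p was 0.0548.

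SET3, the scaffold of the same complex, differed by -0.12 (-0.28 to 0.04), and HOS1, a separate deacetylase, by 0.16 (-0.02 to 0.35). HOS3, another separate deacetylase, had 123, 154 and 135 in H2A R78A, against 167, 152 and 157 in wild type, and mutant replicate 2 overlapped with the wild-type range. The HOS3 difference was -0.22 on the deposited scale (adjusted p = 0.168). It passed as lower after quantile normalization (-0.53, adjusted p = 0.0158), with cyclic loess (-0.47, 0.0217) and with array weights (-0.28, 0.032). HOS3 too lay below the background level.

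No listed methyltransferase gene passed the test. The 6 listed COMPASS genes had small positive differences, from 0.05 to 0.15, and none passed. Of the COMPASS subunits outside the list, SHG1 passed as lower and SWD2 had a difference of -0.08. SET1, the H3K4 methyltransferase, had 332, 279.8 and 376 in H2A R78A, against 262, 341 and 330.1 in wild type, with overlapping groups and a difference of 0.08 (-0.20 to 0.36). The SWD3 groups did not overlap, but its difference of 0.15 had an adjusted p of 0.172. BRE2, SDC1, SPP1 and SWD1 differed by 0.06, 0.05, 0.08 and 0.11. After quantile normalization 3 of the 6 were on the higher side, with a median of 0.0062, and SWD1, the dimmest of them, was at -0.16.

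SET2, the H3K36 methyltransferase, and BRE1, the ubiquitin ligase for H2B, differed by -0.05 (-0.31 to 0.21) and -0.04 (-0.18 to 0.11). DOT1, the H3K79 methyltransferase, had 418, 362 and 386 in H2A R78A, against 426, 433 and 425 in wild type. The DOT1 groups did not overlap, but the difference of -0.14 had an adjusted p of 0.186. It was -0.20 after quantile normalization, which passed only together with the replicate number as a block (adjusted p = 0.0469).

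The listed demethylase genes were both higher on the deposited scale, and they differed in how firm that was. RPH1, GIS1 and ECM5, which are outside the list, had differences of 0.07, 0.17 and -0.11, and none of them passed. JHD2 (YJR119C), which removes H3K4 methylation laid down by Set1, had 424, 399 and 385 in H2A R78A, against 285, 276 and 302 in wild type. The groups were well apart. JHD2 was 1.40-fold higher (log2 0.49 ± 0.08 SE), with the lowest limma adjusted p of the 59 genes, 0.0012. After quantile normalization it was 0.39 higher (adjusted p = 0.00384) and with cyclic loess 0.42 (0.00275). A larger increase was seen in 10.7% of all genes.

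JHD1 (YER051W), which acts on H3K36 methylation, had 162, 133 and 167 in H2A R78A, against 112, 106 and 124 in wild type. The groups did not overlap, and the 1.34-fold increase (log2 0.43 ± 0.12 SE) had a limma adjusted p of 0.0252. JHD1 lies below the background level, where the median of all genes was also higher in the mutant, and after quantile normalization its difference was 0.07 (adjusted p = 0.648). The adjusted p of JHD1 was 0.0843 without mutant replicate 1, 0.109 without mutant replicate 3, 0.0734 without wild-type replicate 1 and 0.0724 without wild-type replicate 2.

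**Figure D4:**
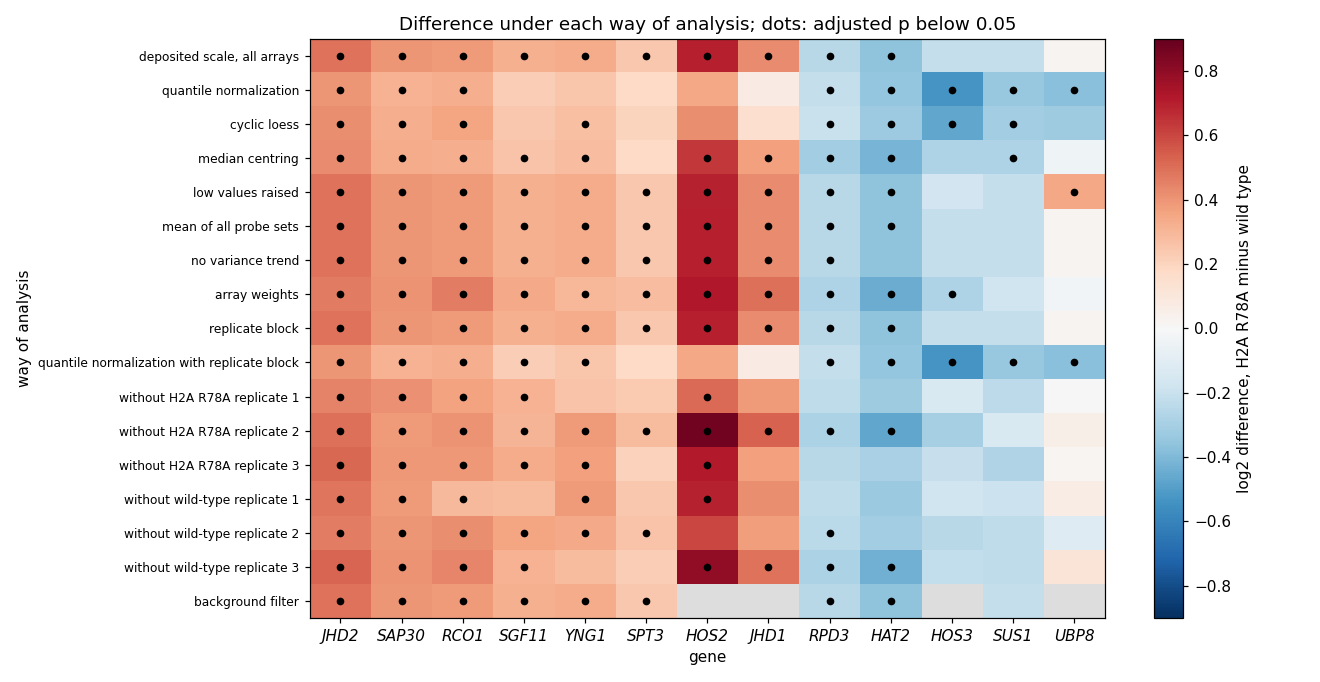
Log2 difference, H2A R78A minus wild type, of the 10 genes that passed and of HOS3, SUS1 and UBP8 (columns) under each way of analysis (rows), with dots where the adjusted p was below 0.05 and plain grey where the background filter had removed the gene. The columns of JHD2, SAP30 and RCO1 carry a dot in every row, and those of HOS3, SUS1 and UBP8 only in some.

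Subunits and partners of the same enzymes outside the list were drawn up as a second list. Of 32 such genes, all measured, 3 were higher and 2 lower, 9.38% and 6.25% against 17.9% and 9.18% of all genes, with a median difference of -0.02. HOS4, another Set3 complex subunit, was 513 ± 21.8 in H2A R78A and 404 ± 14.9 in wild type (SD, n = 3 each), a 1.27-fold increase with a limma adjusted p of 0.00462. SWC4, a subunit that NuA4 shares with the SWR1 remodeller, was 1.29-fold higher (387 ± 18.4 in H2A R78A, 301 ± 6.01 in wild type, adjusted p = 0.00508). HPA2, a dim acetyltransferase gene, was 1.56-fold higher (159 ± 10.6 in H2A R78A, 103 ± 7.66 in wild type, adjusted p = 0.0017), a call lost after quantile normalization (0.28, adjusted p = 0.136) and with cyclic loess (0.0647).

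SHG1, a COMPASS subunit, was 1.25-fold lower, at 615, 606 and 608 in H2A R78A against 795, 739 and 763 in wild type (limma adjusted p = 0.00255). The groups were well apart, and SHG1 also passed after quantile normalization (-0.31, adjusted p = 0.00523). ARP4, an actin-related subunit of NuA4 and of remodelling complexes, was 1.17-fold lower (538 ± 19.8 in H2A R78A, 629 ± 8.64 in wild type, adjusted p = 0.0218), and was named after its value had been seen. The adjusted p of ARP4 was 0.0577 and 0.0574 without mutant replicates 1 and 3, and 0.0587 and 0.055 without wild-type replicates 1 and 3. With the replicate number as a block 3 of the 32 were higher (9.38%, against 23.7% of all genes) and 4 lower (12.5%, against 15.7%). After quantile normalization HOS4 and SWC4 still passed as higher and ARP4 as lower (limma adjusted p = 0.0138, 0.03 and 0.0243). LGE1, a dim gene, then passed as lower (-0.38, adjusted p = 0.0195), against -0.05 on the deposited scale (adjusted p = 0.762).

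A readout of the Rpd3L complex lies in genes that Ume6 and Rpd3 are known to repress in growing cells. Of 12 such genes, 7 rose and 1 fell in H2A R78A, 58.3% and 8.33% against 17.9% and 9.18% of all genes, with a median difference of 0.50. The list was drawn up with the rise of meiotic genes in these arrays already known, so its direction is not independent evidence. The 7 that rose all lie below the background level, where 37.4% of all genes were higher. HOP1, a meiotic chromosome axis gene, had 107, 93.1 and 91.2 in H2A R78A, against 37.2, 33 and 44.3 in wild type. REC102, needed for meiotic breaks, had 202, 169.6 and 187 in H2A R78A, against 83.9, 84 and 80.6 in wild type. The groups were well apart in each, and the limma adjusted p-values were 1.17e-04 and 3.5e-05. INO1 of inositol synthesis was 2.04-fold higher (adjusted p = 4.03e-04) and the recombinase gene DMC1 1.95-fold higher (3.85e-04). CAR1, an arginase gene whose value had been seen before it was named, was 1.19-fold lower (adjusted p = 0.017).

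With the replicate number as a block 9 of the 12 targets were higher (against 23.7% of all genes) and 1 lower (against 15.7%). The block added SPO13 (limma adjusted p = 0.00423) and SPO11 (0.029), which were named after their values had been seen. Quantile normalization left 4 of the 12 higher and 1 lower, against 10.5% and 9.82% of all genes, and made their median 0.24. HOP1, REC102, INO1 and DMC1 then had differences of 0.90, 0.84, 0.63 and 0.60 that passed. Of the 5 targets left by the background filter, 0 were higher and 1 lower by the limma test, against 10.3% and 9.59% of all genes left. These 5 include SPO13 and SPO11, which pass with the block, SPO13 also after quantile normalization with it (adjusted p = 0.0462). REC114 and ZIP1, also among them, had differences of -0.0079 and 0.05 and overlapping groups. Neither passed with the block (limma adjusted p = 0.94 and 0.697). Leaving out 1 array gave 5 to 9 higher targets, with 5 without mutant replicate 3 and without wild-type replicate 1. Of all genes, 12.5% to 19.9% were higher when 1 array was left out. The CAR1 call ended with cyclic loess (adjusted p = 0.0517) and without mutant replicate 1 (0.0738) or 3 (0.0662) or wild-type replicate 1 (0.058) or 2 (0.0508). UME6 itself did not pass, and whether the lower RPD3 signal has a part in the targets' levels was not tested.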

How the data were processed

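The deposited values are probe set signal intensities on a linear scale. The values of mutant replicate 1 have a trimmed mean of 500 (2% trimmed at each end), which was not computed for the other arrays. MAS5 and limma are named in the submitters' processing notes, with versions not given in the sources used here. Of 5900 probe sets, 5498 were paired with 1 gene, 12 symbols were updated by gene ID to the RefSeq R64 annotation, and the probe set with the highest mean stood for each of 47 genes with several, which left 5449 genes. Log2 was taken without further normalization.

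The mutant and wild-type arrays were fitted in limma 3.58.1 (R 4.3.3), using lmFit and a two-sided eBayes test whose prior variance follows signal, adjusted by Benjamini-Hochberg over all 5449 genes with a threshold of 0.05. The fit was run on simulated data with equal, independent noise and planted differences. These data lacked the shift of dim genes and the correlation by replicate number, so they do not bear on the calls made here. The members and lists were chosen with earlier results of these data known. Named were all genes of the list, with the value of every array where they passed, and of each other list up to 4 that passed with the largest difference. Further genes of those other lists were named after their values had been seen.

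The groups share replicate numbers. Deviations from group means correlated across genes with r = 0.206, 0.383 and 0.427 for arrays of the same number. For arrays of unlike number r lay between -0.449 and 0.154. Above the background level, mutant replicate 1 correlated more with wild-type replicate 3 (0.193) than with wild-type replicate 1 (0.107). Pairing is thus not shown for replicate 1. The main fit left the number out, and an alternative fitted it as a block. Other alternatives were quantile, cyclic loess and median scaling, a background filter, low values raised to a floor, averaging the probe sets of a gene, no variance trend, array weights and leaving out each array. Sequences were not used here. Precision is limited by having 3 arrays per group. Figures were drawn with matplotlib 3.10.9.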

Additional observations from a re-analysis of the deposited data

How the results depend on the processing

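JHD2, SAP30 and RCO1 kept their direction and call under all 16 alternatives. RPD3, SGF11 and YNG1 kept theirs under 13 of 16, HAT2 under 11 and SPT3 under 8 of 16, HOS2 under 11 and JHD1 under 8 of the 15 that tested them. The number of higher genes, 8 on the deposited scale, was 3 after quantile normalization, 4 with cyclic loess, 13 with low values raised, 5 with quantile normalization and the replicate block together, and 3 at an adjusted p below 0.01; of all genes, 10.5%, 11.6%, 24.7%, 14.0% and 10.7% were higher there. Leaving out 1 array gave 5 to 9, against 12.5% to 19.9% of all genes, with 5 without mutant replicate 1 and without wild-type replicate 1. The number of lower genes, 2, was 5 after quantile normalization, 4 with cyclic loess, 7 with quantile normalization and the replicate block, 1 without a variance trend and 0 at an adjusted p below 0.01, where 9.82%, 7.32%, 15.4%, 5.73% and 2.53% of all genes were lower. The number of lower genes was 0 to 2 when 1 array was left out, against 3.56% to 11% of all genes. It was 0 without mutant replicate 1, mutant replicate 3 or wild-type replicate 1. Of all genes, only 4.18%, 3.56% and 4.18% were lower there. The replicate block alone gave 10 higher (16.9%, against 23.7% of all genes) and 2 lower (3.39%, against 15.7%), adding SAS2 and RXT3, and changed no other call of the 59. The median difference of 0.06 was -0.019 after quantile normalization. UBP8 turned from 0.02 to -0.38 there. With low values raised, SGF29, EAF1 and DEP1 each had a difference of 0.39, which is the difference between the floors themselves. ADA2 and UBP8 passed there at 0.25 and 0.35, but every mutant value of each was also replaced by the floor of its array. These calls thus do not measure the genes. Over all genes, 976 higher and 500 lower became 573 and 535 after quantile normalization, 632 and 399 with cyclic loess, 811 and 875 with median centring, 1292 and 857 with the replicate block, 761 and 839 with quantile normalization and the block, 1344 and 568 with low values raised, 1340 and 920 with array weights, 956 and 312 without a variance trend, and 683 to 1085 and 194 to 601 when 1 array was left out. A median of all genes between -0.04 and 0.04 was kept throughout these settings. The causes were not tested. A description of promoter motifs was not run.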

Other observations

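The level of signal at which a gene is measured was compared with its difference among the 59 genes. In steps of 1 on the log2 scale of mean signal, the 4 genes between 6 and 7 had a median difference of 0.14, against 0.33 for all genes there. The 9 genes between 7 and 8 had 0.11, against 0.18, the 28 between 8 and 9 had 0.08, against 0.05, and the 17 between 9 and 10 had -0.04, against -0.05. Of the listed genes 1 lay below 6 and none above 10.

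Measured genes next to the 10 that passed, 1 on each side in the order of the RefSeq annotation, were 20 in all. Of these 6 passed as higher and 1 as lower, where 17.9% and 9.18% of all genes did. AAD14, next to RPD3, rose by 0.78 on the log2 scale (limma adjusted p = 1.02e-04) while RPD3 fell. POL5, next to HAT2, fell by 0.36 (adjusted p = 0.0033), and SDD1 on its other side rose by 0.93 (adjusted p = 0.00397). These neighbours were named after their values had been seen. All calls of the 20 neighbours are on the deposited scale. They were not compared with signal level or with quantile normalization.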
